A study of Mus musculus with 6 samples.

Results

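Nnmt and 7 further genes of mouse chromosome 9, Sorl1, Rcn2, Bco2, Tbcel, Ddx6, Arcn1 and Ei24, were examined in liver of chromogranin A (Chga) knockout and wild-type mice. The 8 genes are those of the 12393 genes with a probe set of their own on the array that lie in the stretch of chromosome 9 between Rpusd4 and Cox5a and were chosen by their differences between these same knockout and wild-type arrays. Their differences are therefore given as a description, without a test. Every probe set annotated to 1 of these symbols alone was taken, 13 of 20380 single-gene probe sets. Of these, 12 passed the filter on dim probe sets and 1, the second probe set of Sorl1, did not.

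The study measured liver RNA of male mice aged 12 weeks on Affymetrix arrays, with 3 arrays of Chga knockout and 3 of wild-type mice. Chga, on chromosome 12, encodes a protein of the secretory granules of neuroendocrine cells, and the labels name the knockout without describing the allele. The labels trace both groups to 1 earlier study but do not give the genetic background of either, so a chromosome segment that differs between the groups and a change in transcript level cannot be told apart for genes that lie together. The labels do not say how the mice of a group were related, and p-values measure the spread between these samples only.

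Nnmt transfers a methyl group from S-adenosylmethionine to nicotinamide, the vitamin form from which NAD is salvaged, and so joins the methyl donor and NAD pathways of the liver. Bco2 cleaves carotenoids off their centre in mitochondria. Sorl1 is a sorting receptor of the VPS10 and LDL receptor families that moves cargo between the Golgi apparatus and endosomes, and Arcn1 is the delta subunit of COPI, the coat of vesicles that return from the Golgi apparatus to the endoplasmic reticulum. Rcn2 is a calcium-binding protein of the lumen of the endoplasmic reticulum, and Ei24 is a membrane protein there, induced by p53 and needed for autophagy. Ddx6 is an RNA helicase of translational repression and mRNA decapping, and Tbcel destabilises tubulin. The genes are known for separate functions and are treated together for their place on the chromosome.

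RefSeq promoter entries (GRCm38.p6) matched 5 of the 8 genes, Sorl1, Rcn2, Bco2, Tbcel and Ei24, and not Nnmt, Ddx6 and Arcn1. The 250 bases before the outermost listed start are shown for the 3 of them with the largest differences, 2 lower and 1 higher in knockout liver. They are Sorl1 (chr9:42124298-42124547, minus strand), Rcn2 (chr9:56041595-56041844, plus strand) and Bco2 (chr9:50555139-50555388, minus strand). Capitals mark matches, on either strand, to the TATA box (TATAAA), the CCAAT box (its 5 letters), the GC box (GGGCGG) and the E box (CACGTG), 4 motifs whose matches do not overlap here.
Sorl1: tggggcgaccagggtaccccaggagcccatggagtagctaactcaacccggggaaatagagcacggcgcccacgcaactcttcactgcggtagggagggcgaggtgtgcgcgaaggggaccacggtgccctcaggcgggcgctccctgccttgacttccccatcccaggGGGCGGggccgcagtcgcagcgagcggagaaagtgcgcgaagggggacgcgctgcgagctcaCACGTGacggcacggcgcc
Rcn2: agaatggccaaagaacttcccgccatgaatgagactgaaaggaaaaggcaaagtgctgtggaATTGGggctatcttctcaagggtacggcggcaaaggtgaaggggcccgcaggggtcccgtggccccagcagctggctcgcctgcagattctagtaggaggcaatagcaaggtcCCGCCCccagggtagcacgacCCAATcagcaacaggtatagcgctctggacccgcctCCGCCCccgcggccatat
Bco2: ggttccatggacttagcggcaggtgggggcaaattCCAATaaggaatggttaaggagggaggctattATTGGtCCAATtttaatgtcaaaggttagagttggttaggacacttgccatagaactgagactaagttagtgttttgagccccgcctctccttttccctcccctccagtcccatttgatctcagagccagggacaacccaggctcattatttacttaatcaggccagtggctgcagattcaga
The Sorl1 window held 1 GC box and 1 E box. The Rcn2 window held 2 CCAAT boxes and 2 GC boxes, and the Bco2 window held 3 CCAAT boxes. The TATA box was in 0 of the 3 windows. Of all 32851 such windows in the table, 12.4% held a TATA box, 33.8% a CCAAT box, 32.7% a GC box and 6.02% an E box. The matches describe these letters only, and no motif was in all 3 windows.

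The arrays were alike in overall signal. Pairs of arrays had a Pearson's r, taken over probe sets that are not independent, of 0.964 to 0.967 among knockout arrays, 0.970 to 0.974 among wild-type arrays and 0.960 to 0.967 between the groups, and no pair was identical. The level of dim Bacillus subtilis control probe sets, taken as a background reference, ran from 174 to 322 in knockout arrays and from 151 to 230 in wild-type arrays, with the highest value in knockout replicate 2. The ratio of 5′ to 3′ Gapdh control signal was 1.23 to 1.29 in knockout and 1.25 to 1.29 in wild-type arrays. Chga itself read 61.5, 44.5 and 231 in knockout arrays, against 167, 185 and 42.5 in wild-type arrays. It was above the background reference in 1 of 3 arrays of each group and was removed as dim, so it does not check the group labels.

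Hepatocyte markers were measured well: 7 of 10 had a probe set and 7 of 7 were kept. All 7 were higher in knockout liver, with a median log2 difference of 0.14. Their summed intensity was 936630 to 1041730 in knockout arrays, against 859389 to 951417 in wild-type arrays. Markers of other cells were also measured. Of the stellate cell and matrix markers, 0 of 9 kept genes were higher in knockout liver, with a median of -0.24 and a summed intensity of 26253 to 33026 in knockout arrays, against 31530 to 39795 in wild-type arrays. Of the Kupffer cell and macrophage markers 1 of 11 was higher (median -0.25, sums of 21001 to 32871 in knockout arrays, against 26284 to 34655 in wild-type arrays). Pancreas markers summed to 5937 to 8881 in knockout arrays, against 9416 to 11403 in wild-type arrays, over 6 genes of which 2 were kept, and of 5 cholangiocyte markers 0 were kept. Endothelial markers were mixed, with 4 of 10 higher and a median of -0.03. Few markers were kept of lymphocytes and neutrophils (1 of 4 higher, median -0.12), adipose tissue (0 of 1 higher) and erythroid cells (0 of 1 higher). Over all marker lists 0 genes passed the adjusted threshold (limma). An unadjusted p under 0.05 (limma) was found for 1 of 7 hepatocyte, 3 of 9 stellate cell and 1 of 2 pancreas genes. Of all 8047 genes, each by its brightest kept probe set, 10.3% had such a p. Of these stellate cell genes 1 was at least 1.5-fold lower at an unadjusted p under 0.01 (limma). Of all kept probe sets 1.96% differed by that rule in either direction. The part of these cells in the differences below was not tested, and in whole liver fewer cells of a type and less RNA per cell cannot be told apart.

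Nnmt was higher in all 3 knockout livers. Its single probe set, 1432517_a_at, read 4740, 4088 and 5543 in knockout arrays, against 2986, 1364 and 2173 in wild-type arrays. The lowest knockout value lay above the highest wild-type value, and wild-type replicate 1 was the closest to the knockout arrays. The means were 4790 ± 729 in knockout and 2174 ± 811 in wild type (SD, n = 3 each), a log2 difference of 1.19 ± 0.24 (SE) or 2.29-fold. Differences here and below are knockout minus wild type on the scale of log2(intensity + 16) from 1 limma fit over all kept probe sets. That scale understates the change of dim probe sets. In size the difference of Nnmt stood at the 99.1th percentile of all kept probe sets, and its spread within groups at the 84.5th. The letter a in the name of an Affymetrix probe set marks probes that read several transcripts of 1 gene.

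Bco2 was the other gene well above wild type. It read 1247, 1177 and 849 in knockout arrays, against 406, 647 and 584 in wild-type arrays. Again the groups did not overlap, with knockout replicate 3 nearest to wild type. The log2 difference was 0.99 ± 0.26 (SE, n = 3 per group), close to 1.98-fold, and all 6 arrays were above the background reference. Bco2 has 1 probe set, 1421221_at, so no second reading of it exists on this array.

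Sorl1 showed the largest difference among the 8 genes, and it was in the other direction. Probe set 1426258_at read 766, 122 and 446 in knockout arrays, against 1726, 1845 and 1586 in wild-type arrays. The wild-type arrays lay close together while the knockout arrays spread widely, with replicate 2 below the background reference of 322 on that array. The log2 difference was -2.24 ± 0.50 (SE, n = 3 per group), and it ran from -2.78 without knockout replicate 1 to -1.53 without knockout replicate 2. The second probe set, 1460390_at, was dim. It read 99.8, 74.8 and 48.2 in knockout arrays, against 173, 95.8 and 266 in wild-type arrays, overlapping between the groups and above the reference in 0 of 3 knockout and 1 of 3 wild-type arrays. It gives no independent reading at this level.

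Rcn2, the calcium-binding protein, was also lower in all 3 knockout livers. It read 310, 401 and 398 in knockout arrays, against 910, 1008 and 918 in wild-type arrays. Both groups were tight and far apart, at means of 370 ± 51.5 in knockout and 945 ± 54.5 in wild type (SD, n = 3 each). The log2 difference was -1.32 ± 0.26 (SE). Its spread within groups was at the 27.9th percentile of kept probe sets. The letter s in the name of its only probe set, 1422449_s_at, marks probes that can also match transcripts of other genes, although the annotation gives Rcn2 alone.

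**Figure D1:**
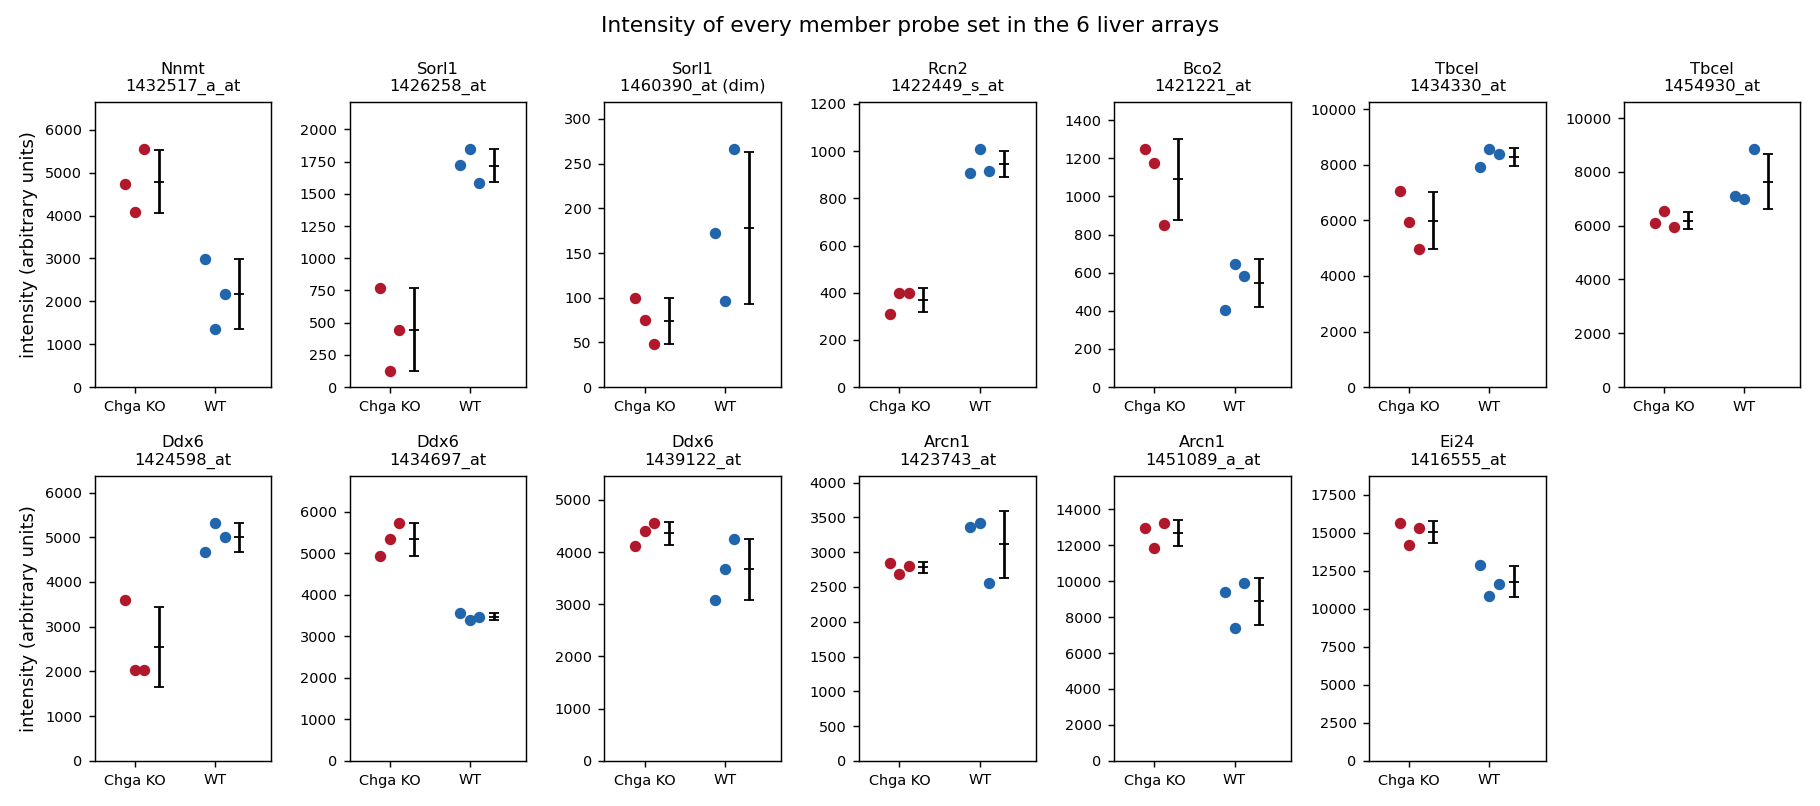
Intensity (arbitrary units, each axis from 0) of the 13 probe sets of the 8 genes in the 3 Chga knockout and 3 wild-type arrays. Points are arrays, and bars give the mean ± SD (n = 3). For Nnmt the knockout arrays lie between 4088 and 5543, all above the wild-type arrays, and for Sorl1 1426258_at they lie between 122 and 766, all below.

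Ddx6, the RNA helicase, has 3 kept probe sets, and they did not move together. The probe set 1424598_at read 3589, 2030 and 2031 in knockout arrays, against 4662, 5316 and 5015 in wild-type arrays. The probe set 1434697_at read 4943, 5339 and 5725 in knockout arrays, against 3564, 3384 and 3470 in wild-type arrays. In both, the groups did not overlap, yet the knockout arrays were below wild type in the first and above it in the second. The log2 differences were -1.02 ± 0.21 and 0.62 ± 0.12 (SE, n = 3 per group). The last, 1439122_at, read 4118 to 4555 in knockout arrays, against 3091 to 4252 in wild-type arrays, and stood at 0.26 ± 0.14 with overlapping groups. All 3 were above the background reference in all 6 arrays. No direction can be given for Ddx6 as a gene. The spread of 1434697_at within groups was at the 5.52th percentile of kept probe sets, and in 1424598_at knockout replicate 1 stood apart from the other knockout arrays.

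Arcn1, the COPI subunit, gave 1 higher and 1 level probe set. Probe set 1451089_a_at read 12988, 11849 and 13232 in knockout arrays, against 9381, 7413 and 9894 in wild-type arrays. All knockout arrays were above all wild-type arrays, at a log2 difference of 0.52 ± 0.12 (SE, n = 3 per group). The other, 1423743_at, read 2850, 2690 and 2808 in knockout arrays, against 3366, 3418 and 2556 in wild-type arrays. There wild-type replicate 3 lay below and the other wild-type arrays above the knockout arrays, and the difference was -0.15 ± 0.15. The 2 probe sets of Arcn1 thus differed in sign, with the negative one about the size of its own standard error.

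Tbcel and Ei24 showed smaller differences. Both probe sets of Tbcel were lower in knockout liver without overlap. The probe set 1434330_at read 7038, 5929 and 4981 in knockout arrays, against 7914, 8554 and 8376 in wild-type arrays, a log2 difference of -0.48 ± 0.13 (SE, n = 3 per group). The probe set 1454930_at read 6103, 6534 and 5937 in knockout arrays, against 7100, 6987 and 8835 in wild-type arrays, at -0.30 ± 0.12. Tbcel was the only 1 of the 3 members with several kept probe sets whose kept probe sets all lay on the same side. The single probe set of Ei24, 1416555_at, read 15619, 14213 and 15289 in knockout arrays, against 12852, 10863 and 11607 in wild-type arrays. The groups did not overlap, and the difference was 0.36 ± 0.10.

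**Figure D2:**
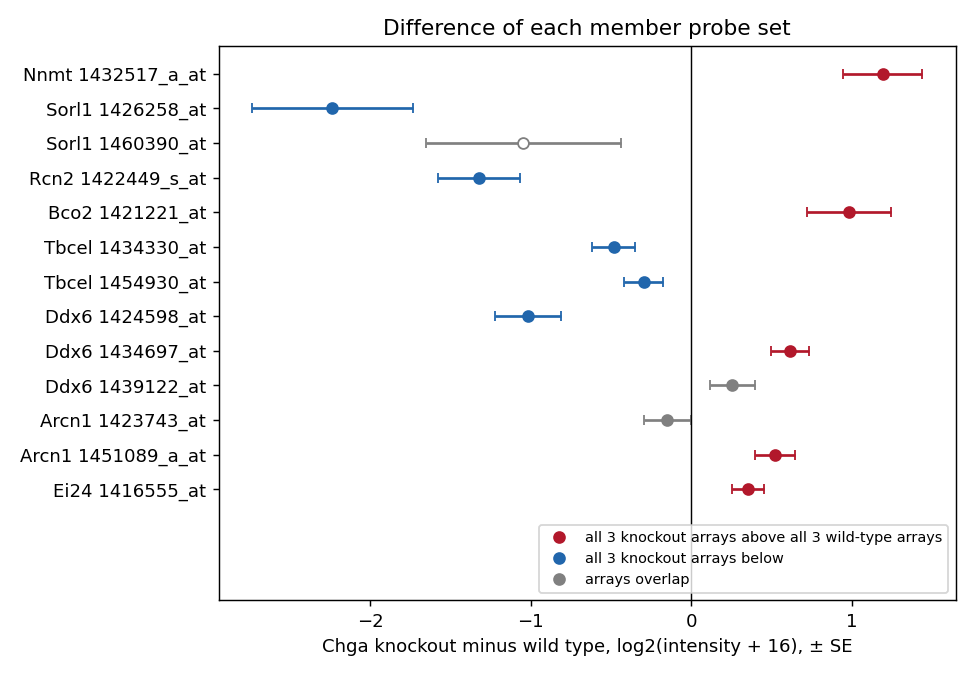
Difference between Chga knockout and wild-type arrays (log2(intensity + 16), horizontal axis) of each probe set of the 8 genes; bars are the standard error of the limma fit, the open point is the dim probe set of Sorl1, and colour says whether the 3 knockout arrays lie all above, all below or among the 3 wild-type arrays. The 3 probe sets of Ddx6 range from -1.02 to 0.62.

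Over the 12 kept probe sets, 5 were higher and 5 lower in knockout liver without overlap between the groups, where 7.44% of the 13576 kept probe sets were higher and 8.12% lower in this way. A looser rule, a 1.5-fold difference and an unadjusted p under 0.01, took in 6 of the 12, as it did 1.96% of all: Nnmt, Bco2 and Ddx6 1434697_at above wild type and Sorl1 1426258_at, Rcn2 and Ddx6 1424598_at below. With limma and Benjamini-Hochberg adjustment over all kept probe sets 0 of the 12 passed at an adjusted p under 0.05, a threshold that 0.376% of all passed, and 10 had an unadjusted p under 0.05, as 9.97% of all did. Since these values chose the genes, the counts say nothing beyond the choice. Without single arrays some passed the adjusted threshold: Nnmt without wild-type replicate 1, Sorl1 1426258_at without knockout replicate 1 or 2, and Ddx6 1424598_at without knockout replicate 1.

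The genes next to the members were compared with them. In chromosome order the nearest measured genes on each side were 15 genes with 24 kept probe sets. Beside Nnmt, Gm5617 stood at -0.24 ± 0.20 and the transcription factor Zbtb16 at 0.17 ± 0.34 and -0.11 ± 0.39 (SE), all with overlapping groups. Beside Bco2, Pts, an enzyme of tetrahydrobiopterin synthesis, stood at -0.28 ± 0.15 and the cytokine Il18 at -0.16 ± 0.13, also overlapping. Nnmt and Bco2 were chosen for their differences and these neighbours were not, so nothing is read from the gap between them.

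Rcn2 lay between Isl2, at -0.18 ± 0.27, and the tetraspanin Tspan3, at -0.11 ± 0.20, both with overlapping groups. Ddx6 lay between Bcl9l (-0.11 ± 0.18) and the trehalase Treh (-0.27 ± 0.43), and Arcn1 between Phldb1 (0.05 ± 0.27) and Ift46 (-0.44 ± 0.24), in each case with overlapping groups. Sc5d, an enzyme of cholesterol synthesis that lies between Sorl1 and Tbcel, stood at 0.05 ± 0.22 and 0.21 ± 0.10. On the far side of Tbcel, 1 of the 3 probe sets of Arhgef12 was lower without overlap (1451159_at, -0.24 ± 0.11). Beside Ei24, 1 of the 3 probe sets of Stt3a, a subunit of the oligosaccharyl transferase, was lower without overlap (1423033_at, -0.53 ± 0.30), and Tmem218 stood at -0.18 ± 0.28. In all, 4 of the 24 neighbouring probe sets did not overlap (16.7%), a share near the 15.6% over all kept probe sets. Of the 24, 1 passed the adjusted threshold, a probe set of the chaperone Hspa8 beside Sorl1, as did 0.376% of all kept probe sets.

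From Rpusd4 to Cox5a the RefSeq gene table lists 608 genes, 339 of them protein-coding. Of these, 160 had a single-gene probe set and 100 a kept one, with 161 kept probe sets. The members stood in the order Ei24 (gene 4 of the 100), Sorl1 (12), Tbcel (14), Ddx6 (35), Arcn1 (38), Nnmt (60), Bco2 (66) and Rcn2 (90), and so were spread over most of the stretch. At its ends, Rpusd4, a pseudouridine synthase, stood at -0.37 ± 0.26 (SE, n = 3 per group), and the 3 probe sets of Cox5a, a subunit of cytochrome c oxidase, at 0.24 ± 0.08, 0.16 ± 0.08 and 0.25 ± 0.11. The groups did not overlap for Rpusd4 and for 2 of the 3 Cox5a probe sets.

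The stretch as a whole had no common direction. Its median log2 difference was 0.014, with 83 of 161 probe sets higher in knockout liver, beside a median of -0.018 over all 13576 kept probe sets. The typical size was larger, with a median absolute difference of 0.24 in the stretch and 0.22 in the stretch without the members, against 0.17 in the rest of chromosome 9 and 0.16 over all kept probe sets. The knockout and wild-type arrays did not overlap for 43 of 161 probe sets of the stretch (26.7%) and for 33 of 149 without the members (22.1%), against 15.3% of 503 probe sets of the rest of chromosome 9 and 15.6% of all. The shares at an unadjusted p under 0.05 were 22.4%, 17.4%, 8.75% and 9.97% in the same order. The stretch was bounded with these results known, so its shares are a description.

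**Figure D3:**
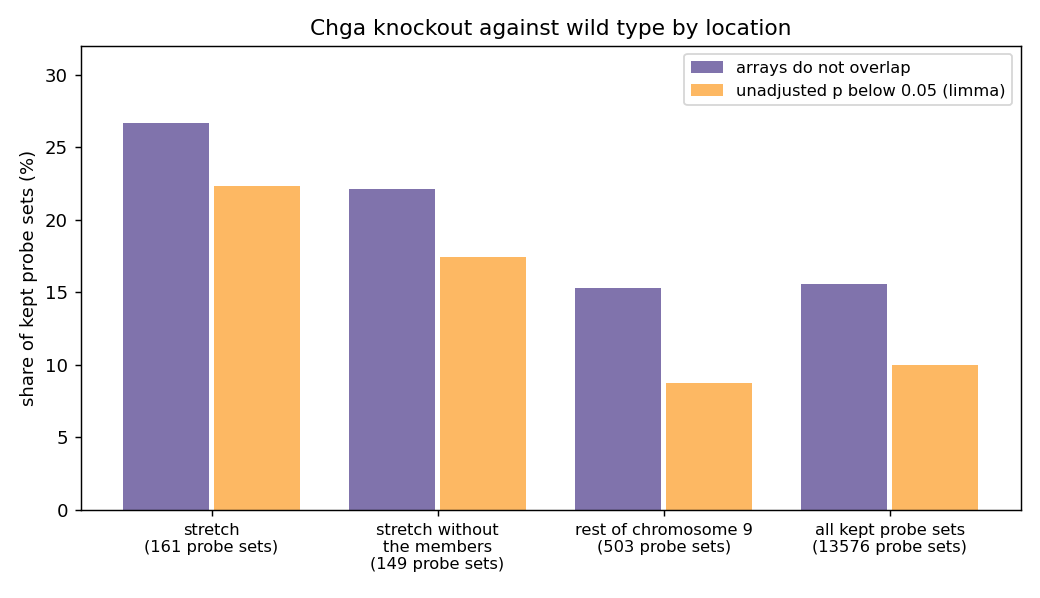
Share of kept probe sets (%, from 0) whose knockout and wild-type arrays do not overlap, or with an unadjusted limma p under 0.05, in the chromosome 9 stretch with and without the 8 genes, in the rest of the chromosome and over the whole array. The share without overlap is 26.7% in the stretch, 22.1% in the stretch without the 8 genes and 15.6% over all kept probe sets.

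Along the stretch the probe sets without overlap were not all in 1 place. In blocks of 20 measured genes, cut after the data were seen, their share was 39.4% from Rpusd4 to Cbl, 18.5% from Nlrx1 to Ttc36, 19.5% from Kmt2a to Nnmt, 37.0% from Zbtb16 to Atm and 21.2% from Acat1 to Cox5a. These shares count the members, which were chosen by their differences, so they partly restate that choice. The blocks held 3, 2, 1, 1 and 1 of the members, so the 2 blocks with the highest shares held 3 members and 1. These 2 blocks differed in direction, which was also observed after the data were seen. From Rpusd4 to Cbl most probe sets without overlap were lower in knockout liver, with those of Ei24 and Hspa8 higher. From Zbtb16 to Atm all without overlap were higher except that of Fdx1. The reason was not tested.

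**Figure D4:**
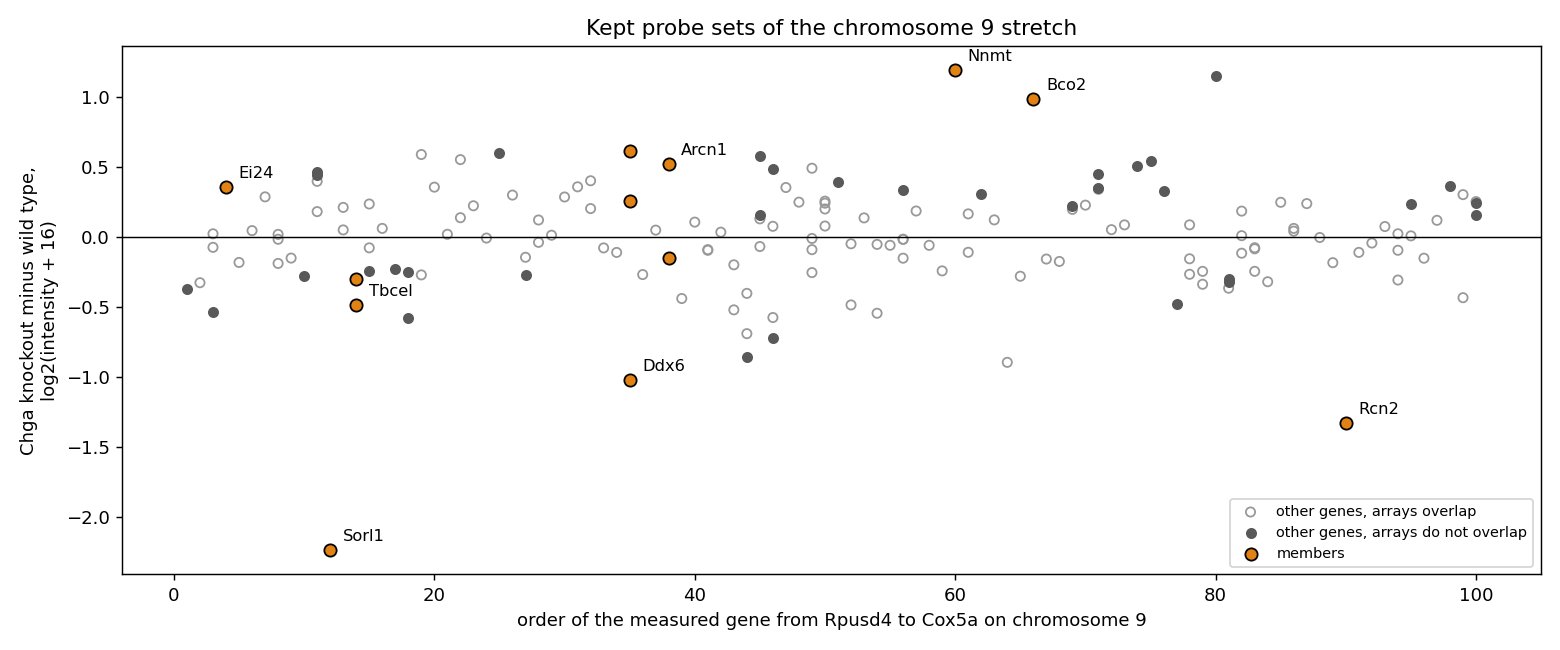
Difference between Chga knockout and wild-type arrays (log2(intensity + 16)) of the 161 kept probe sets of the stretch, by the order of the 100 measured genes on chromosome 9. Members are filled and named (beside their farthest probe set), and other genes are grey, filled where the groups do not overlap. Both directions occur in the stretch. Among probe sets without overlap most are lower from Rpusd4 to Cbl and most are higher from Zbtb16 to Atm.

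Apart from the members, 3 of 149 probe sets of the stretch passed the adjusted threshold (2.01%). In the rest of chromosome 9 it was 0 of 503, and over all kept probe sets 0.376%. As the stretch was bounded with these results known, the share is a description. Atm, the kinase that signals DNA breaks, rose by 1.15 ± 0.19 (SE, limma, adjusted p = 0.0381), at 2188, 2063 and 1687 in knockout arrays, against 1039, 733 and 888 in wild-type arrays. Hspa8, the constitutive cytosolic chaperone, rose by 0.46 ± 0.08 in probe set 1455789_x_at (limma, adjusted p = 0.0413), at 73537, 72502 and 71973 in knockout arrays, against 54503, 49005 and 54690 in wild-type arrays. Fdx1, the ferredoxin that passes electrons to mitochondrial cytochrome P450 enzymes, fell by 0.48 ± 0.08 on the log2 scale (limma, adjusted p = 0.0413), with 28625, 30899 and 30395 in knockout arrays, against 43155, 40258 and 41846 in wild-type arrays. In all 3 the groups were clearly separate. None of the 3 calls held through every omission of an array: Atm did not pass in 5 of 6 omissions (limma, adjusted p up to 0.127), Hspa8 in 6 (up to 0.136) and Fdx1 in 6 (up to 0.173). The letter x in the name of the Hspa8 probe set marks probes that may bind other transcripts.

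The other 3 kept probe sets of Hspa8 stood at 0.45 ± 0.08, 0.40 ± 0.44 and 0.18 ± 0.10, none past the threshold. Mpzl2, a cell adhesion protein, and Rnf214, a ring finger protein, each had 1 probe set past the looser rule. With that of Atm, these were the 3 of 149 probe sets of the stretch without the members past that rule. Their share, 2.01%, was near the 1.96% of all kept probe sets. The Mpzl2 probe set 1416237_at read 2761, 1593 and 1563 in knockout arrays, against 3387, 3577 and 3396 in wild-type arrays (-0.85 ± 0.21). It had the same outline as Ddx6 1424598_at, with knockout replicate 1 nearest to wild type, and the other 2 Mpzl2 probe sets were at -0.69 ± 0.22 and -0.40 ± 0.20 with overlapping groups.

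Rnf214 repeated the disagreement seen in Ddx6. Probe set 1427273_at read 626, 561 and 516 in knockout arrays, against 848, 977 and 1005 in wild-type arrays (-0.72 ± 0.22). Probe set 1456399_at read 1490, 1313 and 1410 in knockout arrays, against 1025, 914 and 1058 in wild-type arrays (0.49 ± 0.17). The 2 probe sets of Rnf214 lay on opposite sides with no overlap in either, and the other 2 were at -0.57 ± 0.39 and 0.08 ± 0.14. Genes with non-overlapping probe sets on both sides were counted after this was seen. They were 2 of the 37 genes of the stretch with several kept probe sets, Ddx6 and Rnf214 (5.41%). Without the members, which were chosen by their differences, they were 1 of 34, Rnf214 alone (2.94%), beside 1 of 119 in the rest of chromosome 9 (0.840%) and 29 of 2920 over the array (0.993%). As these genes prompted the count, nothing is read from the shares.

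The 5 genes whose array profiles were most like that of Nnmt were Riox2 on chromosome 16, Jpt1 on 11, Tmem132a on 19, Cbx5 on 15 and Cd36 on 5. All 5 were dim, at the 40.3th to 45.4th percentile of mean log2 value, where Nnmt was at the 80.4th. They lay just above the filter, which used the mean over all arrays, so their knockout values helped them pass. Tmem132a was above the background reference in 2 of 3 wild-type arrays. Likeness was the root mean square difference between log2 profiles over the 6 arrays, each centred on its own mean. It ran from 0.14 for Riox2 to 0.24 for Cd36, against a median of 0.74 over 12474 probe sets of other genes and 0.69 for a flat profile. Riox2, an oxygenase of the nucleolus, read 482, 485 and 551 in knockout arrays, against 311, 166 and 255 in wild-type arrays. As in Nnmt, wild-type replicate 2 was the lowest. Cd36, a fatty acid transporter, read 506, 569 and 693 in knockout arrays, against 332, 168 and 170 in wild-type arrays. None of the 5 lay on chromosome 9, which held 5.32% of the probe sets compared. The profile matched includes the difference for which Nnmt was chosen, so the likeness is a description.

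Genes that work with the members were taken from 9 lists. Over their 167 measured genes, each by its brightest kept probe set, 20 had an unadjusted limma p under 0.05 (12.0%), 15 higher and 5 lower in knockout liver, near the 10.3% of all 8047 genes taken in the same way. The counts at that threshold given for single lists are to be read against this share. Genes at that threshold that the naming rule did not cover are also given, and were chosen after their values were seen. Of 18 measured genes of NAD and nicotinamide metabolism 11 were higher in knockout liver, with a median log2 difference of 0.043, beside -0.015 over all 8047 genes by their brightest kept probe set. By limma 0 passed the adjusted threshold and 3 had an unadjusted p under 0.05. Kmo, which hydroxylates kynurenine on the way from tryptophan to NAD, stood at 0.40 ± 0.09 (SE, n = 3 per group), and Haao, a later enzyme of that route, at 0.33 ± 0.11, both without overlap. Tdo2, which starts the route, was level at 0.01 ± 0.09. Aox3, an aldehyde oxidase, a class of enzyme that oxidises methylated nicotinamide, stood at -0.20 ± 0.09, also without overlap.

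Of 19 genes of the methyl donor cycle and other methyltransferases 13 were higher, with a median of 0.071. By limma 0 passed and 3 had an unadjusted p under 0.05. As3mt, the arsenic methyltransferase, passed the looser rule. It read 4656, 3644 and 3710 in knockout arrays, against 1433, 2497 and 2530 in wild-type arrays, at 0.93 ± 0.22. All 3 knockout values were above the wild-type values. Bhmt, which remethylates homocysteine, stood at 0.33 ± 0.10 and Gnmt, a further consumer of S-adenosylmethionine, at 0.15 ± 0.10, both with overlapping groups. Ahcy, which clears S-adenosylhomocysteine, stood at 0.19 ± 0.09 without overlap. Cbs, which takes homocysteine out of the cycle, stood at -0.21 ± 0.09 without overlap.

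Around Bco2, 11 of 17 genes of carotenoid and retinoid handling were higher, with a median of 0.078. By limma 0 passed and 3 had an unadjusted p under 0.05, and 2 passed the looser rule upward. Cyp26a1, which breaks down retinoic acid and is induced by it, read 2653, 4012 and 2842 in knockout arrays, against 1492, 1341 and 2320 in wild-type arrays. The groups did not overlap, and the log2 difference was 0.89 ± 0.23. Rdh11, a retinol dehydrogenase, read 6873, 5413 and 10458 in knockout arrays, against 4018, 4905 and 3439 in wild-type arrays, at 0.84 ± 0.22. Aldh1a1, which makes retinoic acid from retinal, stood at 0.43 ± 0.09 without overlap. The retinol carriers Ttr (0.14 ± 0.08) and Rbp4 (0.15 ± 0.08) had overlapping groups.

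Around Sorl1 and Arcn1, 0 of 18 genes of receptor sorting and retromer and 0 of 18 COPI genes passed (limma; 3 and 0 had an unadjusted p under 0.05), with 5 and 8 higher and medians of -0.061 and -0.043. The 3 sorting genes at that threshold were all higher without overlap: Gga1, an adaptor at the Golgi apparatus (0.89 ± 0.29), Ap1m1, a subunit of the AP-1 adaptor (0.40 ± 0.14), and the sorting nexin Snx6 (0.38 ± 0.16). The retromer subunits Vps35 (-0.06 ± 0.12) and Vps29 (-0.03 ± 0.12), the nexin Snx3 (0.19 ± 0.11) and the receptor Lrp1 (-0.19 ± 0.12) had overlapping groups. So did Copa, the alpha subunit of the same coat as Arcn1 (-0.06 ± 0.10), and Arf1, the GTPase that recruits it (0.10 ± 0.10). Arf4 (0.04 ± 0.11) and Arfgap2 (0.15 ± 0.15) were alike in this.

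Around Ddx6, 0 of 25 genes of decapping and deadenylation passed (limma; 1 had an unadjusted p under 0.05), with 11 higher and a median of -0.090. Ago2, the microRNA-guided Argonaute protein, stood at 0.42 ± 0.16 without overlap. The deadenylase subunits Cnot6 (0.04 ± 0.14) and Cnot6l (0.03 ± 0.11), Tnrc6a of the microRNA complex (-0.17 ± 0.12) and Tob1 (-0.06 ± 0.15) had overlapping groups. Around Ei24, 0 of 26 p53 targets and autophagy genes passed (limma; 1 had an unadjusted p under 0.05), with 12 higher and a median of -0.015. Gabarapl1, of the family that coats autophagosomes, stood at -0.49 ± 0.10 without overlap. Map1lc3b (-0.02 ± 0.09), Sqstm1 (0.01 ± 0.09) and Vmp1 (-0.05 ± 0.16) had overlapping groups.

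Around Rcn2, 0 of 8 calcium-binding proteins and chaperones of the secretory pathway passed (limma; 1 had an unadjusted p under 0.05), with 5 above wild type and a median of 0.072. Hspa5, the main chaperone of the endoplasmic reticulum, read 64448, 56137 and 53636 in knockout arrays, against 37588, 42890 and 40514 in wild-type arrays. It was higher in all knockout livers, at 0.52 ± 0.10, opposite to Rcn2. Calr stood at 0.19 ± 0.09, also without overlap, Canx at 0.05 ± 0.11 and Hsp90b1 at -0.09 ± 0.15.

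Around Tbcel, 15 of 18 tubulin folding factors and tubulins were higher, with a median of 0.097. The beta tubulin Tubb4b rose by 0.85 ± 0.13 (SE, limma, adjusted p = 0.0195), at 4606, 4070 and 4147 in knockout arrays, against 2449, 2376 and 2246 in wild-type arrays. It was the only 1 of the 167 genes of the 9 lists to pass, where 34 of all 8047 genes taken in the same way passed. The groups of Tubb4b were far apart, but the call was lost in 4 of 6 omissions of an array (limma, adjusted p up to 0.0971). In this list 5 genes had an unadjusted p under 0.05, 3 of them higher and 2 lower. Tubb2a read 3631, 1645 and 2770 in knockout arrays, against 1019, 1429 and 1039 in wild-type arrays, at 1.14 ± 0.27, with knockout replicate 2 nearest to wild type. The 2 on the lower side were the beta tubulin Tubb5 (-0.39 ± 0.15) and the folding cofactor Tbce (-0.38 ± 0.17), both with overlapping groups. Tuba4a stood at 0.57 ± 0.11 without overlap and the folding cofactor Tbca at 0.05 ± 0.13. Tubulins are near-identical in sequence, so the gene that each probe set read is uncertain.

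**Figure D5:**
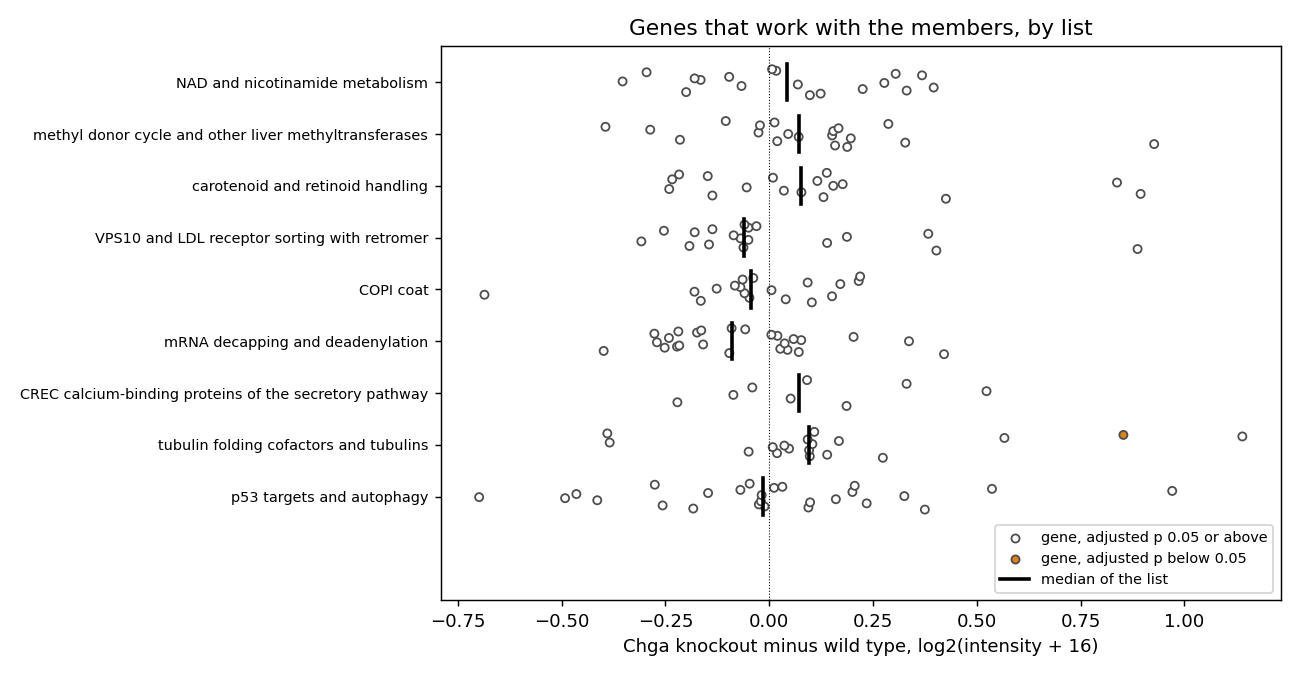
Difference between Chga knockout and wild-type arrays (log2(intensity + 16)) of each measured gene of the 9 lists, by its brightest kept probe set. Points are genes, filled where the adjusted p is under 0.05 (Tubb4b alone), and thick lines are list medians, which lie between -0.090 and 0.097.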

How the data were processed

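Liver RNA of 3 Chga knockout and 3 wild-type mice was measured on 1 Affymetrix array each. The authors deposited 1 linear intensity per probe set and array, made with GCOS 1.2 per the submitters' processing notes; no source used here states the scaling rule. Means trimmed by 2% at each end ran from 2501.32 to 2501.42, so the arrays had a common scale. Probe sets were named from the platform annotation with symbols and gene order from RefSeq (GRCm38.p6); the files name no build. Of 22690 probe sets 64 controls were left out, and the upper 60% by mean, 13576, were kept. Log2(intensity + 16) was fitted with limma 3.58.1 in R 4.3.3 (lmFit, eBayes with trend, no covariate) over all 6 arrays, with Benjamini-Hochberg adjustment at 0.05. The fit was tested on simulated data. The background reference was the 95th percentile of 27 control probe sets. Named were Chga, the members, the stretch ends, the members' nearest neighbours, stretch genes past a threshold, the 5 profiles nearest to Nnmt, and up to 4 genes per list, those past a threshold first and then the brightest; other list genes with an unadjusted p under 0.05 were added after their values were seen. Members, lists and this rule were chosen with earlier results of these data known. Alternatives changed the pseudocount, scaling, filter, trend, weights, replicate block, window, gene summary and arrays. The number of arrays limits the precision, and 3 against 3 arrays allow no exact permutation p under 0.1.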

Additional observations from a re-analysis of the deposited data

How the results depend on the processing

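Each kept probe set of the 8 genes kept the sign of its difference under every alternative run. With 1 array left out, 21 to 57 probe sets passed over the whole array (51 in the main analysis), 0 to 2 of the members (0), 0 to 4 of the stretch (3) and 0 to 1 of the list genes (1); the array-wide count was 23 without wild-type replicate 1 and 21 without wild-type replicate 3, and the stretch count 0 without wild-type replicate 2 or 3 (limma; 32 at an unadjusted p under 0.05 in each) and 1 without wild-type replicate 1 and without either of knockout replicates 2 and 3. Array weights gave 82 over the array, 2 members, 7 in the stretch and 3 list genes, and a pseudocount 16 times as large gave 85, 3, 8 and 3. Keeping the upper 40% gave 1 member, 6 in the stretch and 3 list genes, and under the looser rule 3 members and 5 in the stretch (6 and 9 in the main analysis). Without the trend 7 passed over the array, 0 in the stretch and 0 list genes (limma; 30 and 17 at an unadjusted p under 0.05). Median centring gave 1 in the stretch and 2 list genes, a pseudocount of 64 gave 5 and 2, quantile normalization 2 list genes, and averaging a gene's probe sets 0 list genes (limma; 22 at an unadjusted p under 0.05). With the replicate number as a block 27 passed over the array, 0 in the stretch and 0 list genes (limma; 31 and 19 at an unadjusted p under 0.05); deviations of same-numbered arrays correlated at -0.059, -0.060 and -0.065, so the numbers pair nothing here, and no array correlated best with its own number. The members that passed were Sorl1 1426258_at, Rcn2 and Ddx6 1434697_at with the larger pseudocount, Ddx6 1424598_at and 1434697_at with array weights, and Ddx6 1434697_at in the upper 40%. The cause of these shifts was not tested. Windows of 50 or 100 measured genes on each side of Nnmt gave 3 calls each.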
